A study of Homo sapiens with 6 samples.

Results

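A set of 10 genes of the oxygen-sensing pathway was followed in HCCC9810, an established human cell line of intrahepatic cholangiocarcinoma, the cancer of the bile duct epithelium. They were the hypoxia-inducible factor subunits HIF1A, EPAS1 and ARNT, the prolyl hydroxylases EGLN1 and EGLN3, and the hypoxia-responsive genes VEGFA, ADM, ANKRD37, BNIP3 and CA9. The 10 members were chosen by gene symbol for their known roles, out of 19470 genes in the count table. Earlier results of these data were known when they were chosen. Wild-type cells received 20 μM isolinderalactone (ILL), a plant sesquiterpene lactone, or its vehicle DMSO for 24 h, and bulk mRNA libraries were sequenced, 3 per group. A single cell line at 1 dose and 1 time was measured, and oxygen was not a variable of the design.

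Cells sense oxygen through the stability of the HIF-α proteins. In oxygen, the EGLN enzymes hydroxylate HIF-1α (encoded by HIF1A) and HIF-2α (encoded by EPAS1), the VHL ubiquitin ligase binds the hydroxylated proteins, and the proteasome degrades them. When oxygen falls, the α subunits persist, pair with ARNT and bind hypoxia response elements, whose core is ACGTG or GCGTG. Since this control acts on protein, the mRNA level of an α subunit does not report its activity. In solid tumours the pathway is known for driving vessel growth, glycolysis and acid export.

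The core letters of the hypoxia response element were searched in the promoters of the members, since these letters link the factors to their target genes. RefSeq promoters of GRCh38.p14 covered 250 bases before to 50 bases after each start site, and 9 of the 10 members had an entry, all but VEGFA. ACGTG or GCGTG, on either strand, was found in 7 of these 9 members and in 48.4% of all 35116 promoters. A member counted if any of its entries matched, while the share is per promoter entry, so the units are unlike. ACGTG alone stood in 21.4% and GCGTG in 36.5% of all promoters. ARNT and EGLN3 held no match in this window, and HIF1A had a match at 1 of its entries. In the stretches below, 30 bases each and read 5′ to 3′ on the strand of the gene, capitals mark each match, and a reverse match reads CACGT or CACGC.
EGLN1, chr1:231422284-231422313 (minus strand): ggggccgtggtgtACGTGcagagcgcgcag
EPAS1, chr2:46297277-46297306 (plus strand): ggggcctgccggcGCGTGcccgcccacaca
ANKRD37, chr4:185396676-185396705 (plus strand): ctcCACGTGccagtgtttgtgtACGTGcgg
CA9, chr9:35673897-35673926 (plus strand): ctcgtttccaatgCACGTacagcccgtaca
BNIP3, chr10:131982030-131982059 (minus strand): cgCACGTGccaCACGCacccCACGCccctg
ADM, chr11:10304959-10304988 (plus strand): agagcaggagcgcGCGTGgctgaggaaaga
HIF1A, chr14:61695296-61695325 (plus strand): ttggctgagagcgGCGTGggctggggtggg
BNIP3 held 6 matches in its whole window and ANKRD37 held 3, while the other genes shown held 1 each. In both genes a forward and a reverse match overlap in the palindrome CACGTG, which is also the E-box read by MYC and related factors. A match is a description of letters and no evidence of binding.

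Libraries held between 34282764 and 37758569 counts, and among the members CA9, BNIP3 and ANKRD37 had the fewest. The 10 most abundant genes took 5.2% to 5.45% of counts in control and 8.12% to 8.25% with ILL. All 7 cholangiocyte keratin and epithelial markers were at 1 FPKM (counts relative to gene length and library size) or more in all 6 libraries, and their summed level was 5080 to 5200 FPKM in control and 4590 to 4840 FPKM with ILL. Endothelial markers summed to 0.229 to 0.321 FPKM in control and to 0.283 to 0.377 FPKM with ILL, and no endothelial marker reached 1 FPKM in all libraries. The summed levels in control and with ILL were 3.05 to 4.86 and 3.32 to 8.14 FPKM for 5 hepatocyte markers (CYP3A4 at 0), and 2.63 to 2.85 and 3.24 to 3.73 FPKM for 6 fibroblast markers. The cholangiocyte sum was lower with ILL and the fibroblast sum higher, in both cases without overlap. Their part in the results was not tested. The fibroblast rise lay mainly in COL1A1, at a mean of 1.76 FPKM in control and 2.46 FPKM with ILL. COL1A1 was the 1 fibroblast marker at 1 FPKM or more in all libraries. LUM stood at 0.941 FPKM in control and 1 FPKM with ILL. COL1A2, COL3A1, DCN and PDGFRB were under 0.1 FPKM in all libraries, with lower means with ILL. The cholangiocyte sum held opposite changes. Of its 7 markers, the largest rise was that of CDH1, 4.19-fold (adjusted p = 1.0e-20, edgeR's quasi-likelihood test). The largest fall was that of KRT18, by 0.82 on the log2 scale (adjusted p = 4.2e-14, same test).

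ILL was compared with control to find which steps of the pathway changed at the mRNA level. VEGFA rose 4.42-fold, while EGLN3, ADM, EPAS1, ARNT and EGLN1 rose by smaller amounts, from 1.76-fold for EGLN3 to 1.21-fold for EGLN1. HIF1A and ANKRD37 did not pass the test, and BNIP3 and CA9 were too low to be tested. A gene was called when the adjusted p of edgeR's quasi-likelihood test, over 13066 tested genes, was under 0.05. Of the 8 members tested, 6 were called (75%), all of them higher, in a comparison that called 73.1% of all tested genes. Higher calls made up 36.2% of all tested genes and lower calls 36.9%, which is 4726 and 4821 genes. Scaled by total count only, these were 4293 and 5277 genes, and with limma on log2(FPKM + 1) 3547 and 4725 of 10571 genes with a mean of at least 1 FPKM. The median log2 fold change was 0.50 over the 8 members tested and 0 over all tested genes. A call with a fold change above 2 or under 0.5 made a gene a differentially expressed gene (DEG), and 1 of the 8 members (12.5%) was a DEG, against 23.9% of all tested genes. VEGFA was that gene, and DEGs that rose made up 12.5% of all tested genes.

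**Figure D1:**
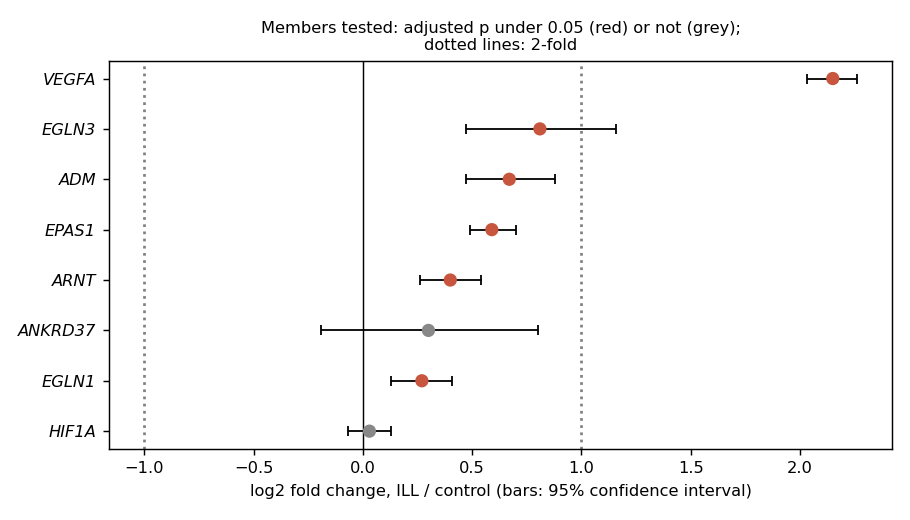
Log2 fold change of ILL over control (horizontal axis) for the 8 members tested, with 95% confidence intervals as bars, red for an adjusted p under 0.05 and grey otherwise, and dotted lines at a 2-fold change. VEGFA at 2.15 is the member beyond the dotted line, and the intervals of HIF1A and ANKRD37 cross 0.

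HIF1A encodes HIF-1α, the oxygen-labile subunit made in nearly all cells. In CPM (counts relative to library size, with TMM scaling) HIF1A stood at 526, 484 and 520 in the control libraries and at 531, 509 and 523 with ILL. The groups overlapped, and their means were 510 ± 22.8 and 521 ± 11.1 CPM (SD, n = 3). The log2 fold change was 0.03 (SE 0.05, adjusted p = 0.572, edgeR's quasi-likelihood test), with a 95% interval from -0.07 to 0.13. The sign of this value turned to -0.04 when libraries were scaled by total count only.

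EPAS1 encodes HIF-2α, the second oxygen-labile subunit, best known from endothelium, kidney and kidney cancer. Its level was 143, 142 and 144 CPM in control and 214, 221 and 214 CPM with ILL. The ILL libraries all lay above the control libraries by far more than the spread within either group. EPAS1 rose 1.51-fold, a log2 fold change of 0.59 (SE 0.05, adjusted p = 1.2e-10). In bulk RNA, a larger share of cells that make a transcript and more transcript per cell cannot be told apart.

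ARNT, also called HIF-1β, is the partner that both α subunits need to bind DNA and is not itself degraded by oxygen. ARNT stood at 42.8, 40 and 39 CPM in control and at 51.1, 56.4 and 53.8 CPM with ILL, with no overlap between the groups. It rose 1.32-fold, a log2 fold change of 0.40 (SE 0.07, adjusted p = 9.2e-06).

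The balance of the 2 α subunits was then measured within each library, which needs no scaling between libraries. The ratio of EPAS1 to HIF1A in FPKM was 0.21, 0.226 and 0.214 in control and 0.31, 0.334 and 0.314 with ILL. The mean ratio went from 0.217 ± 0.00881 to 0.319 ± 0.0123 (SD, n = 3), and all 3 ILL libraries lay above all 3 control libraries. HIF1A remained the more abundant α transcript in all 6 libraries. The log2 difference of the ratio was 0.56, with a p of 0.10 by a two-sided exact permutation test (adjusted p = 0.10 over 2 ratios), which is the smallest p that 3 against 3 libraries can give.

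EGLN1 encodes PHD2, the main oxygen sensor that marks HIF-α for destruction. EGLN1 stood at 55.6, 62.9 and 53.2 CPM in control and at 71, 66.3 and 69.9 CPM with ILL. The control library with the highest value came within a few CPM of the lowest ILL library, but in CPM the groups did not overlap. In FPKM they were not apart, with control replicate 2 and ILL replicate 2 both at 14.7. EGLN1 rose 1.21-fold, a log2 fold change of 0.27 (SE 0.07, adjusted p = 8.7e-04). Apart from the fold change cutoff, this call was lost in 1 alternative. That was limma on log2(FPKM + 1) with no filter on low values, at 0.19 (adjusted p = 0.052).

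EGLN3 encodes PHD3, a hydroxylase of the same family whose transcription is itself induced by HIF. EGLN3 had 153, 172 and 159 counts in control and 316, 267 and 231 counts with ILL, which is 4.44 ± 0.48 and 7.8 ± 1.21 CPM (SD, n = 3). All ILL libraries were higher, although they were spread more widely than the control libraries. EGLN3 rose 1.76-fold, a log2 fold change of 0.81 with a 95% interval from 0.47 to 1.16 (adjusted p = 1.3e-04).

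The ratio of EGLN3 to EGLN1 in FPKM was 0.115, 0.126 and 0.137 in control and 0.206, 0.19 and 0.153 with ILL. The groups did not overlap, and the means were 0.126 ± 0.0111 and 0.183 ± 0.027 (SD, n = 3). Of this pair, EGLN1 remained the more abundant transcript in all 6 libraries. The related hydroxylase gene EGLN2 stood above both, at a mean of 31.7 FPKM in control and 33.7 FPKM with ILL. The log2 difference was 0.53, with the smallest p possible here, 0.10, by the two-sided exact permutation test (adjusted p = 0.10).

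**Figure D2:**
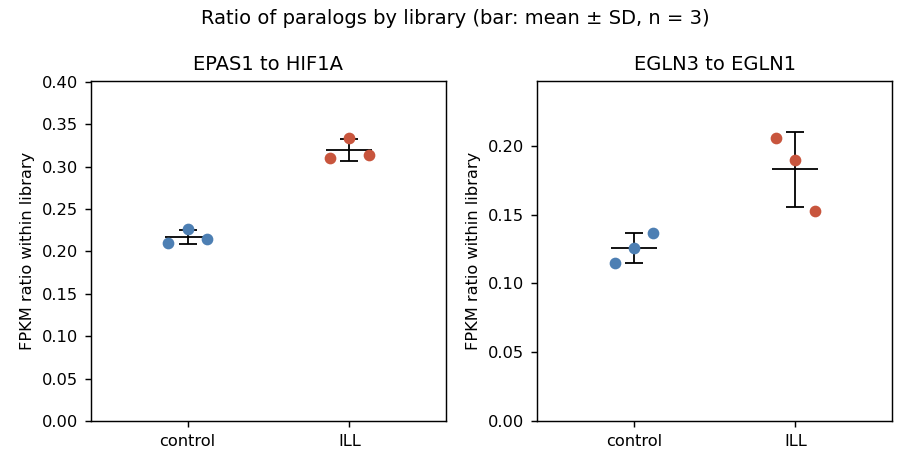
FPKM ratio within each library (vertical axis, from 0) of EPAS1 to HIF1A and of EGLN3 to EGLN1, in control and with ILL, with 1 point per library and bars for mean ± SD of 3 libraries. In both panels the ILL libraries lie above the control libraries, at means of 0.319 against 0.217 and of 0.183 against 0.126.

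VEGFA encodes the vascular endothelial growth factor that draws new vessels toward tissue short of oxygen, and it is also known to be induced by ATF4 under amino acid and endoplasmic reticulum stress. VEGFA had 1936, 1858 and 1811 counts in control and 7692, 7997 and 8000 counts with ILL. In CPM this was 51.3 ± 1.51 in control and 227 ± 6.51 with ILL (SD, n = 3), and the lowest ILL library was at 220 CPM while no control library exceeded 52.9 CPM. VEGFA rose 4.42-fold, a log2 fold change of 2.15 with a 95% interval from 2.03 to 2.26 (adjusted p = 1.2e-20). By log2 fold change VEGFA ranked at 413 from the highest among the 13066 tested genes. EGLN3, next among the members, ranked at 2186.

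ADM encodes adrenomedullin, a vasodilator peptide long used as a hypoxia marker. ADM stood at 11.9, 12.1 and 12.7 CPM in control and at 20.4, 20.4 and 18 CPM with ILL, with a wide gap between the groups. ADM rose 1.6-fold, a log2 fold change of 0.67 (SE 0.10, adjusted p = 1.8e-06).

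ANKRD37, a small ankyrin repeat gene often included in hypoxia signatures, had 106, 86 and 102 counts in control and 109, 135 and 102 counts with ILL. The groups were just apart in CPM but overlapped in FPKM, where 1 ILL library at 3.63 lay below 1 control library at 3.75. The log2 fold change was 0.30 (SE 0.24, adjusted p = 0.257), and its 95% interval ran from -0.19 to 0.80, which held both 0 and the value of ADM.

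BNIP3, a mitochondrial protein that drives mitophagy in hypoxia, had 13, 8 and 14 counts in control and 8, 4 and 5 counts with ILL. It did not pass the filter on low counts, which asked for about 0.281 CPM in at least 3 libraries, and its groups touched at 0.228 CPM. Without that filter its log2 fold change was -0.97 (adjusted p = 0.393, edgeR's quasi-likelihood test). DESeq2 gave the same value with an adjusted p of 0.321, and limma on log2(FPKM + 1) with no filter gave -0.14 with an adjusted p of 0.029. GENCODE release 29 lists 39 pseudogenes named after BNIP3, none of them in the count table, and how reads shared with such copies were counted is not given in the sources used here. The BNIP3 level is therefore uncertain. HIF1A, EGLN1 and EGLN3 have 1 such named pseudogene each. Its paralog BNIP3L, named here after its value was seen, had 1754, 1591 and 1863 counts in control and 2731, 2695 and 2682 counts with ILL, and rose by 0.70 on the log2 scale (adjusted p = 9.6e-10).

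CA9, the membrane carbonic anhydrase that is a common stain for hypoxic tumour cells, had 0 counts in 5 libraries and 1 count in ILL replicate 3. Both groups were under the floor of 3 counts per library, so no fold change is given. A count of 0 does not show that the gene is silent.

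**Figure D3:**
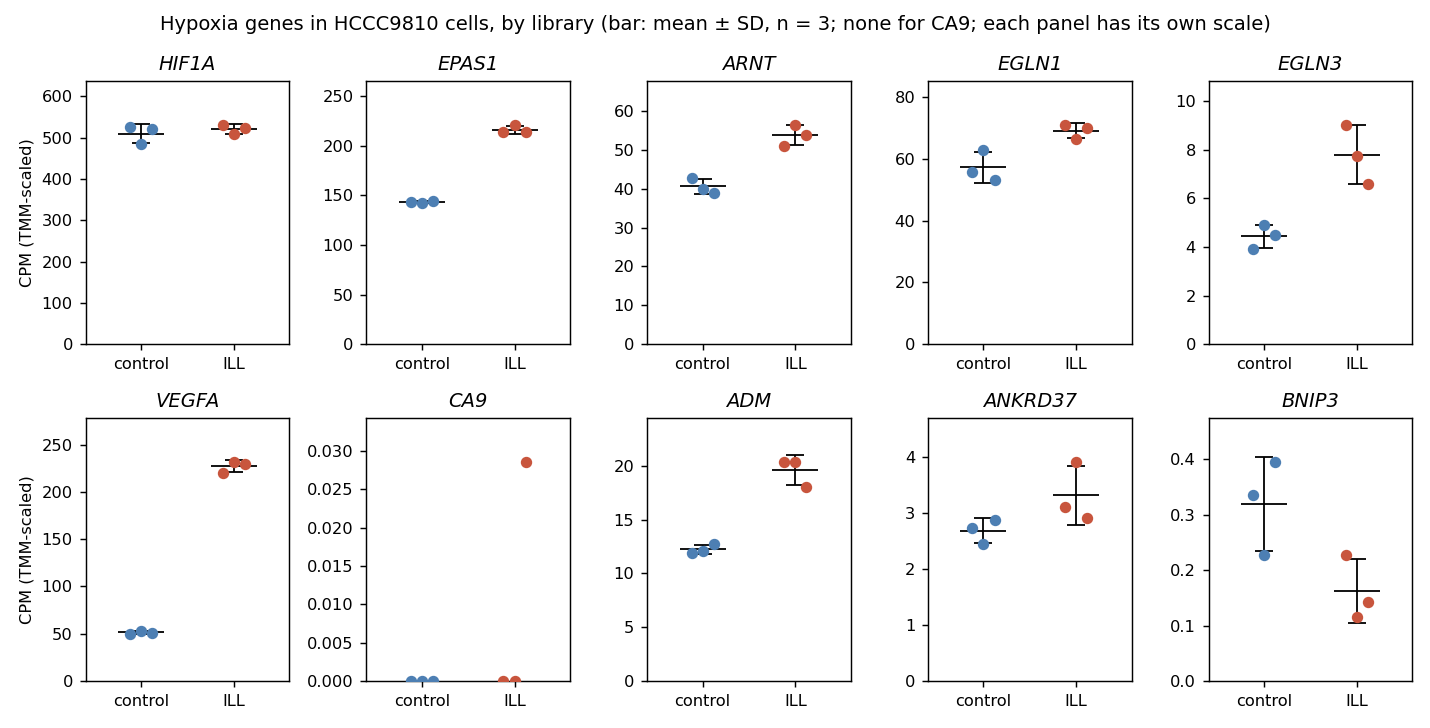
CPM of each member by library (vertical axis from 0, a separate scale per panel), blue for control and red for ILL, with mean ± SD of 3 libraries except for CA9, where 1 read was counted. VEGFA, EPAS1, ADM, ARNT, EGLN1 and EGLN3 are higher with ILL without overlap, and HIF1A overlaps.

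By CPM, 7 of the 8 members tested had groups that did not overlap, ANKRD37 among them, against 75.4% of all tested genes. Levels between genes were compared in FPKM, which allows for gene length. In control, HIF1A led with 125 ± 5.59 FPKM, followed by EPAS1 at 27 ± 0.136 FPKM (SD, n = 3). VEGFA at 14.1 and EGLN1 at 13.4 FPKM came next and overlapped each other, as did ARNT at 8.67 and ADM at 8.42 FPKM. ANKRD37 at 3.51, EGLN3 at 1.68, BNIP3 at 0.212 and CA9 at 0 FPKM followed with no overlap between neighbours. With ILL the order was HIF1A at 121, VEGFA at 59.4, EPAS1 at 38.8, EGLN1 at 15.4, ADM at 12.8 and ARNT at 10.9 FPKM, then the same last genes, again with no overlap between neighbours. By mean, VEGFA thus moved from the third to the second place, and it lay above EPAS1 in all 3 ILL libraries. In control replicate 2, EGLN1 at 14.7 FPKM lay above VEGFA at 14.5 FPKM.

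The regulators of HIF were taken from a list of 17 genes, 16 of which were tested. In this list 8 genes rose and 3 fell, beside 36.2% and 36.9% of all tested genes, with a median log2 fold change of 0.15. Scaled by total count only, 6 rose and 4 fell, and in each of 3 limma fits on FPKM 5 rose and 5 fell. CITED2, which competes with HIF-α for the coactivators p300 and CBP, rose from 17.4 ± 1.42 to 52 ± 3.28 CPM, a log2 fold change of 1.57 (adjusted p = 5.6e-15). ARNT2, the paralog of ARNT, rose from 1.40 to 3.29 CPM, a log2 fold change of 1.23 (adjusted p = 8.1e-04). SIAH1, a ubiquitin ligase that can mark some of the EGLN enzymes for degradation, rose by 0.76 (adjusted p = 1.1e-07).

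The VHL ligase holds VHL, elongins, CUL2 and RBX1. VHL went from 43.9 to 45.6 CPM, a log2 fold change of 0.06 (adjusted p = 0.467, edgeR's quasi-likelihood test), with its sign turned to -0.01 when scaled by total count only. ELOC fell by 0.41 on the log2 scale (adjusted p = 2.7e-07), RBX1 fell by 0.33 (adjusted p = 6.8e-04) and CUL2 fell by 0.20 (adjusted p = 0.00526). These 3 genes were the lower calls of the list.

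HIF1AN encodes FIH, the asparagine hydroxylase that blocks coactivator binding, and its log2 fold change was 0.14 (adjusted p = 0.0546, edgeR's quasi-likelihood test). EGLN2, a further HIF prolyl hydroxylase, was at 68.6 in control and 76.6 CPM with ILL, a log2 fold change of 0.16 (adjusted p = 0.0321). Apart from the fold change cutoff, its call was lost on scaling by total count only (adjusted p = 0.214) and in all limma fits on FPKM. It was also lost without control replicate 1 (adjusted p = 0.0712), without control replicate 2 (0.131) and without ILL replicate 2 (0.241). HIF3A, a further α subunit, was too low to test, with 4, 0 and 1 counts in control and 2, 21 and 19 counts with ILL.

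VEGFA and ADM act through families of ligands and receptors, and a list of 15 of these held 9 tested genes. Of these, 2 rose and 4 fell (median 0.02), beside 36.2% and 36.9% of all tested genes. ADM2, a peptide related to ADM that is also known as a target of ATF4, rose from 1.85 ± 0.509 to 37.8 ± 1.54 CPM, a log2 fold change of 4.35 (adjusted p = 2.8e-19). NRP1, a coreceptor for VEGF, rose by 0.23 (adjusted p = 0.00172). VEGFB, which binds VEGF receptor 1 and not VEGF receptor 2, fell by 0.45 on the log2 scale (adjusted p = 2.7e-06), opposite to VEGFA. RAMP1, which forms receptors for CGRP and related peptides, fell by 2.16 (adjusted p = 5.5e-13), and ACKR3, a scavenging receptor, fell by 1.15 (adjusted p = 1.4e-07). The fourth lower call was RAMP2, the partner that makes the calcitonin receptor-like receptor bind ADM, named here after its value was seen, which fell by 1.33 (adjusted p = 0.0202) from 70, 32 and 27 counts in control to 22, 19 and 7 counts with ILL. The RAMP2 call was lost without control replicate 1 (adjusted p = 0.195) and without ILL replicate 3 (adjusted p = 0.105). The genes FLT1, KDR and FLT4 of the VEGF receptors and the ADM receptor gene CALCRL were among the 6 genes too low to test.

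Glycolysis genes are common HIF targets, and all 21 genes of the glycolytic list were tested. In this list 5 rose and 11 fell, beside 36.2% and 36.9% of all tested genes, with a median log2 fold change of -0.22. No gene of the list passed the fold change cutoff, against 23.9% of all tested genes. SLC2A1, the glucose transporter GLUT1, rose from 282 ± 12.1 to 415 ± 21.4 CPM, a log2 fold change of 0.56 (adjusted p = 8.6e-10). ENO2 rose by 0.75 (adjusted p = 3.1e-08) and ALDOA by 0.54 (adjusted p = 4.8e-06). ALDOA stood at only 17.8 CPM in control and 25.7 CPM with ILL, against 1280 and 746 CPM for TPI1. What set this low ALDOA level was not tested.

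The lower calls included abundant enzymes of the pathway. ENO1, a glycolytic enolase, fell by 0.93 on the log2 scale (adjusted p = 4.4e-14), from 1210 ± 79.7 to 637 ± 23.9 CPM. LDHA, which makes lactate from pyruvate, fell by 0.83 (adjusted p = 5.3e-14), and TPI1, which interconverts triose phosphates, fell by 0.77 (adjusted p = 1.6e-13). Processed pseudogenes of these 3 enzymes can share reads with them. VEGFA and these enzymes moved in opposite directions in the same libraries.

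Of 36 other hypoxia-responsive genes, 34 were tested. Among these, 19 rose and 6 fell, beside 36.2% and 36.9% of all tested genes, with a median log2 fold change of 0.42. NDRG1, a stress gene induced by hypoxia and by iron chelation, rose from 30.6 ± 5.97 to 527 ± 14.1 CPM, a log2 fold change of 4.11 (adjusted p = 3.4e-22). STC2, a secreted glycoprotein also induced by endoplasmic reticulum stress, rose from 17.1 ± 0.663 to 111 ± 7.81 CPM, a log2 fold change of 2.69 (adjusted p = 1.5e-20). BHLHE41, a transcriptional repressor of the circadian system, rose by 1.77 (adjusted p = 1.3e-06). CA12, the other tumour membrane carbonic anhydrase, named here after its value was seen, rose from 0.98 ± 0.548 to 2.92 ± 0.538 CPM (log2 fold change 1.58, adjusted p = 3.8e-04).

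Other genes of the same list went down. RAB20, a GTPase of endosomes and phagosomes, fell by 1.17 on the log2 scale (adjusted p = 4.9e-10), from 20.3 to 9.06 CPM. HILPDA, a lipid droplet protein that inhibits the lipase ATGL, fell by 1.08 (adjusted p = 1.7e-06). AK4, a mitochondrial adenylate kinase, fell by 0.98 (adjusted p = 6.3e-11). The lists held 68.8% (regulators), 66.7% (ligands and receptors), 76.2% (glycolytic) and 73.5% (other hypoxia-responsive) called genes, beside the 73.1% of all tested genes given above.

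**Figure D4:**
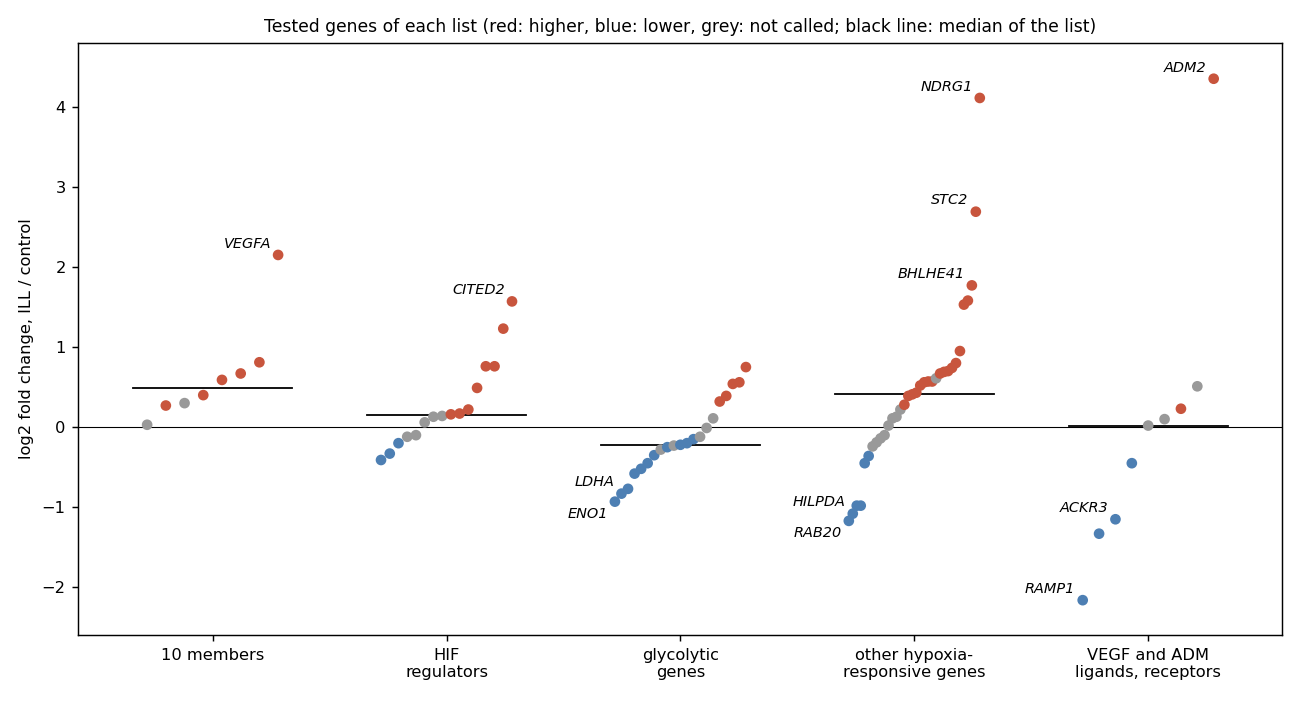
Log2 fold change of ILL over control (vertical axis) for each tested gene of the 10 members and of the 4 related lists, 1 point per gene in order of size, red for higher, blue for lower and grey for not called, with a black line at the median of each list. Points of both colours appear in the 4 related lists, and the medians are 0.50, 0.15, -0.22, 0.42 and 0.02 from left to right.

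By GENCODE release 29 on GRCh38, the 6 members that rose lie at chr6:43770184-43786487 (VEGFA, plus strand), chr14:33924231-34462774 (EGLN3, minus strand), chr11:10304680-10307397 (ADM, plus strand), chr2:46293667-46386703 (EPAS1, plus strand), chr1:150809705-150876768 (ARNT, minus strand) and chr1:231363751-231425044 (EGLN1, minus strand). Genes on the opposite strand overlap HIF1A (HIF1A-AS1 and HIF1A-AS2), EGLN3 (EGLN3-AS1), VEGFA (AL136131.3), CA9 (ARHGEF39), ANKRD37 (UFSP2) and BNIP3. Whether counting used strand is not given in the sources used here, so reads from such partners cannot be told apart from those of the members. The gene model of EGLN3 also spans SPTSSA on the same strand.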

How the data were processed

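Gene counts and FPKM values were deposited by the authors, with 1 column per library and no pooling. The count values were deposited unnormalized per gene symbol. The FPKM values deposited by the authors match counts per gene length and library total, within 0.1% for 100% of nonzero values. The submitters' processing notes name GRCh38 and DESeq2, while the aligner, the counting program and the annotation are not given in the sources used here. All counts were fitted with edgeR 4.0.16 in R 4.3.3, after filterByExpr and TMM scaling, with the quasi-likelihood test and Benjamini-Hochberg adjustment over 13066 genes. SE and 95% intervals come from that fit. On simulated counts the test was checked for known changes. Far fewer genes changed there than were called here, evenly up and down, so that check did not test the scaling. DESeq2 1.42.0 and limma 3.58.1 (log2 of FPKM plus 1 or 0.1) served as alternatives. The members, the related lists and the tests were chosen with earlier results of these data known. Beside the members and 6 regulators, the text names the 3 genes at each end of each list. These were taken among called genes whose groups stood apart and whose mean reached 1 CPM, and the exceptions are stated. Cell type markers named singly lie outside these lists and were picked by their values. Labels do not say whether libraries came from separate cultures, so p-values measure the spread between libraries, which may be technical. One further list of cell type markers is not reported here.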

Additional observations from a re-analysis of the deposited data

How the results depend on the processing

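The results were recomputed under 16 alternatives, 6 of which left out 1 library each. With a fold change cutoff added, called genes numbered 3120 in all (23.9%), 1 member (12.5%) and 2 HIF regulators (12.5%). The glycolytic list then held 0, the other hypoxia-responsive genes 7 (20.6%) and the ligands and receptors 4 (44.4%). Leaving out 1 library gave 9131 to 9319 called genes in all, 6 members throughout, 9 to 13 regulators, 16 to 18 glycolytic genes, 25 to 26 other hypoxia-responsive genes and 5 to 7 ligands and receptors. HIF1A changed sign, uncalled throughout, to -0.04 with library size only and in 3 limma fits on FPKM and to -0.01 without control replicate 2 (-0.01 to 0.05 over the libraries left out), and VHL changed to -0.01 with library size only and in the same limma fits. HIF1AN was called in 3 alternatives, at 0.15 to 0.17. Of 45 genes named from the lists and tested, 38 had the same sign and the same call in the alternatives without the fold change cutoff. With limma on log2(FPKM + 1), which understates the change of low genes, values moved by over 1.5 times for ADM2 (2.75), ARNT2 (0.29), BHLHE41 (0.78), CA12 (0.34) and RAMP2 (-0.67), with their calls kept. With that fit and no filter, 6 members were still called, but EGLN1 was lost and BNIP3 was called lower. Apart from the cutoff, where its construction shows it, the cause of these changes was not tested. Same-numbered libraries did not deviate together (r from -0.022 to 0.011, with 1 of 3 numbers matching best), so the numbers do not pair the libraries, and with a replicate block 9437 genes in all and 6 members were called. CA9, BNIP3, HIF3A and ANKRD37 had low counts, and what set them was not tested.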

Other observations

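The hydroxylases of HIF belong to a wider family of oxygen-dependent dioxygenases that use 2-oxoglutarate, and several of its genes stood among the other hypoxia-responsive genes. Of 8 such genes, grouped here after their values were seen, 6 were called higher and 0 lower by edgeR's quasi-likelihood test, while 73.1% of all tested genes were called and 36.2% were called higher. KDM3A, a histone H3K9 demethylase, rose by 0.95 on the log2 scale (adjusted p = 1.5e-11). KDM4C rose by 0.69 (adjusted p = 1.6e-06) and KDM4B by 0.67 (adjusted p = 3.9e-07). The collagen prolyl hydroxylase genes P4HA2 and P4HA1 rose by 0.80 (adjusted p = 1.2e-09) and 0.57 (adjusted p = 1.2e-08), and the lysyl hydroxylase gene PLOD1 rose by 0.39 (adjusted p = 2.8e-06). PLOD2, with a log2 fold change of -0.19 (adjusted p = 0.0554), and JMJD6, at 0.13 (adjusted p = 0.174), were not called, although PLOD2 was called lower with library size only, at -0.26 (adjusted p = 0.0112).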
